A study of Mus musculus with 24 samples.

Results

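The cAMP and protein kinase A (PKA) signalling genes were followed across the dorsal hippocampus of wild-type (WT) and CBP KIX/KIX mice. They were chosen by symbol from the protein-coding genes of GENCODE M21: the adenylyl cyclases (Adcy followed by a digit, 10 genes), the regulatory (Prkar, 4 genes) and catalytic (Prkac, 2 genes) subunits of PKA, the phosphodiesterases (Pde, 26 genes) and the A-kinase anchoring proteins (Akap, 16 genes). These are 58 of the 51826 gene identifiers in the count table. The rule goes by name, so it also takes genes that do not act on cAMP. Pde5a, Pde9a and the catalytic subunits Pde6a, Pde6b and Pde6c are specific for cGMP, and Pde6g and Pde6h are inhibitory subunits of the photoreceptor enzyme. Pde12 codes for a mitochondrial RNA-degrading enzyme, Pde4dip for a scaffold protein of the centrosome and Golgi, and Pde6d for a protein that carries prenylated proteins.

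All 24 samples are labelled male, on the C57BL/6j background and 2 to 4 months old, whereas the study's methods say of its experiments in general that both sexes were used. CBP KIX/KIX mice, called KIX here, carry point mutations in the KIX domain of the coactivator CBP that block its binding to phosphorylated CREB and c-Myb. The mutation is present in the whole body from development on, and the WT mice were littermates. In RNA-Seq 1, ribosome-depleted total RNA was sequenced from 3 WT homecage mice, 3 WT mice and 3 KIX mice, the last 2 groups taken 1 h after Morris water maze (MWM) training. In RNA-Seq 2, poly(A)-selected RNA was sequenced from 3 WT homecage, 4 WT and 4 KIX mice taken 1 h after contextual fear conditioning (CFC), and 4 KIX homecage mice. Task, library type, sequencing site and run change together between RNA-Seq 1 and RNA-Seq 2 and cannot be told apart. There was no KIX homecage group in RNA-Seq 1. The KIX substitutions cannot be seen in gene counts, so the counts give no check of genotype: the CBP gene Crebbp lay at 165 to 193 CPM (read counts brought to a common library size by upper-quartile scaling) in KIX MWM mice and at 169.5 to 229 CPM in WT MWM mice.

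Cyclic AMP is made from ATP by adenylyl cyclases, most of them stimulated by Gs-coupled receptors, and broken down by phosphodiesterases. PKA is held inactive by a dimer of regulatory subunits bound to catalytic subunits, and cAMP binding to the regulatory subunits sets the catalytic subunits free. Anchoring proteins tether the regulatory subunits near membranes, mitochondria, the centrosome or the nucleus. In hippocampal neurons PKA phosphorylates CREB, which then recruits CBP through the KIX domain at cAMP response elements (CREs), and this pathway is known for its part in long-lasting synaptic plasticity and long-term memory.

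Since the mutation lies at the CREB-binding surface of CBP, the promoters of the genes were searched for the CRE (TGACGTCA, its own reverse complement) and for its core (TGACG, either strand, which the CRE also holds). RefSeq promoter windows on GRCm38.p6, 300 bases around each annotated start, were at hand for 47 of the 58 genes (90 windows). The full CRE stood in 1 of the 47 genes, Prkar1a (2.13%), beside 2.03% of the 27025 genes with a promoter window. The core stood in 18 of 90 windows (20%), beside 20.8% of all 32851 windows. By gene this was 34% against 23%, and the genes had more windows each than genes at large. A match is a description of the letters only. Shown here is the stretch before the start site that holds the CRE of Prkar1a, and the windows with a core in Prkar1b and Pde4a, which are described below as lower in trained KIX mice. Capitals mark the CRE and the cores, and a core on the other strand reads CGTCA. The windows are chr11:109650699-109650948 (plus strand), chr5:139150002-139150251 (minus strand) and chr9:21183851-21184100 (plus strand).
Prkar1a: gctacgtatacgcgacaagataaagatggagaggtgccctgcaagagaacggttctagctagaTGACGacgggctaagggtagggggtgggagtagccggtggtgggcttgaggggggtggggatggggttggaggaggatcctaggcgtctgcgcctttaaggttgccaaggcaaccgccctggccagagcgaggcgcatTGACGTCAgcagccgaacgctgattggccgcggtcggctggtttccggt
Prkar1b: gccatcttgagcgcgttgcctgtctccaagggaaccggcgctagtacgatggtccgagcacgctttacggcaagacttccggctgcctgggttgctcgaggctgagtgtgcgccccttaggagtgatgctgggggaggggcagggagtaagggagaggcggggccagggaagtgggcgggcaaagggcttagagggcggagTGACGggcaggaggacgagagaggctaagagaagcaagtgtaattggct
Pde4a: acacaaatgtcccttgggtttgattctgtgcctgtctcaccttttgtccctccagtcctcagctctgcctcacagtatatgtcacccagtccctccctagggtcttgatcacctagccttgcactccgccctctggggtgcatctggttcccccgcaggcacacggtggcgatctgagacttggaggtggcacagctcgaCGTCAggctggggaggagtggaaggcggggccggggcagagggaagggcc
The CRE of Prkar1a began 49 bases before the start site, as did the core in Prkar1b, and the core in Pde4a began 50 bases before it. Neither the CRE nor the core stood in the windows of Pde10a and Akap9, the other genes that passed the threshold between trained KIX and WT mice.

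The total count per library was 38174044 to 65709282 in RNA-Seq 1 and 15385836 to 46056290 in RNA-Seq 2. Markers of hippocampal neurons (Camk2a, Prox1, Wfs1 and others, 6 of 6 detected) were summed at 3341 to 5682 CPM. Most of this sum was Camk2a, at 2514 to 4489 CPM. Some libraries stood apart. KIX homecage replicate 3 went against its label, with the activity-induced gene Fos at 105 CPM against 1.64 to 4.31 CPM in the other 3 KIX homecage libraries and at most 30.1 CPM in the 20 libraries of the other groups. KIX homecage replicates 2, 3 and 4 held the astrocyte gene Gfap at 553, 800 and 1442 CPM, while replicate 1 held 304 CPM and the 20 libraries of the other groups 225 to 335 CPM. Aqp4, another astrocyte gene, was at 104, 125, 165 and 231 CPM in KIX homecage replicates 1 to 4, against 65.8 to 126 CPM in the other groups. The astrocyte genes Slc1a3 (537, 519, 510 and 530 CPM) and Gja1 (200, 183, 185 and 181 CPM) did not rise over these replicates. Aldh1l1 was at 38.2, 34.0, 38.9 and 49.2 CPM. Neuronal markers differed over KIX homecage replicates 1 to 4 too. Fibcd1 was at 162, 131, 95.7 and 56.9 CPM, against 103 to 156.5 CPM in the other RNA-Seq 2 groups. Prox1 was at 82.2, 63.2, 86.6 and 122.8 CPM, against 64.6 to 103.5 CPM. Camk2a was at 4041, 3529, 3402 and 3000 CPM. Neurod6, Wfs1 and Spink8 lay at 187.5 to 211.4, 102.6 to 113.3 and 15.8 to 19.5 CPM. In WT homecage mice of RNA-Seq 1, a marker of the neighbouring thalamus was uneven: Prkcd was at 80.0, 18.3 and 67.3 CPM. The choroid plexus gene Ttr ran from 3.26 to 3842 CPM over all libraries. Fewer cells of a type and less RNA per cell cannot be told apart in these tissue samples.

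At rest the pathway was dominated by a small number of isoforms (levels per kilobase of exon, RPKM, in WT homecage mice of RNA-Seq 2, n = 3, mean ± SD). Prkar1a and Prkar1b, the type I regulatory subunits, stood highest of all 58 genes at 152 ± 2.41 and 131 ± 4.68 RPKM. The type II subunits Prkar2b and Prkar2a were at 10.7 ± 0.67 and 8.26 ± 0.29 RPKM. Of the catalytic subunits, Prkaca was at 72.1 ± 2.13 RPKM and Prkacb at 39.0 ± 1.19 RPKM. Adcy1, the cyclase stimulated by calcium and calmodulin and known from synaptic plasticity, was at 71.9 ± 4.22 RPKM, a level within the spread of Prkaca. The summed level of the regulatory subunits was 2.72 ± 0.07 times that of the catalytic subunits, and Prkar1a made up 50.3% ± 0.55 and Prkar1b 43.4% ± 0.74 of the regulatory sum.

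Below Adcy1, which made up 44.2% ± 1.08 of the cyclase sum, came Adcy2 at 33.5 ± 1.22 RPKM, Adcy5, the main striatal cyclase, at 19.1 ± 0.97 RPKM, and Adcy9 at 15.8 ± 1.79 RPKM. Among phosphodiesterases the calcium- and calmodulin-activated Pde1a (33.0 ± 0.42 RPKM) and Pde1b (26.1 ± 2.26 RPKM) stood above Pde4a, a cAMP-specific enzyme of the rolipram-sensitive group, at 15.3 ± 0.55 RPKM. The anchoring proteins were led by Akap8l (28.5 ± 1.57 RPKM), a nuclear protein, Akap11 (18.6 ± 0.61 RPKM), which also binds glycogen synthase kinase and protein phosphatase 1, and Akap8 (12.2 ± 0.36 RPKM), which binds chromatin and PKA in the nucleus. Over the 58 genes, 20 were at 10 RPKM or more, 21 between 1 and 10, 7 between 0.2 and 1, and 10 under 0.2 RPKM. Akap4, a protein of the sperm tail, had 0 counts in all 24 libraries, which allows up to 0.0537 to 0.174 CPM per library at a floor of 3 counts. Akap2, Pde6a, Pde6c and Pde6h had fewer than 3 counts in some libraries. Akap2 shares 84.4% of its exon length with Pakap and Pde2a shares 64.3% with Gm45837, on the same strand, and Adcy3 shares 22.1% with Cenpo on the other strand, so their counts depend on how shared reads were assigned.

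**Figure D1:**
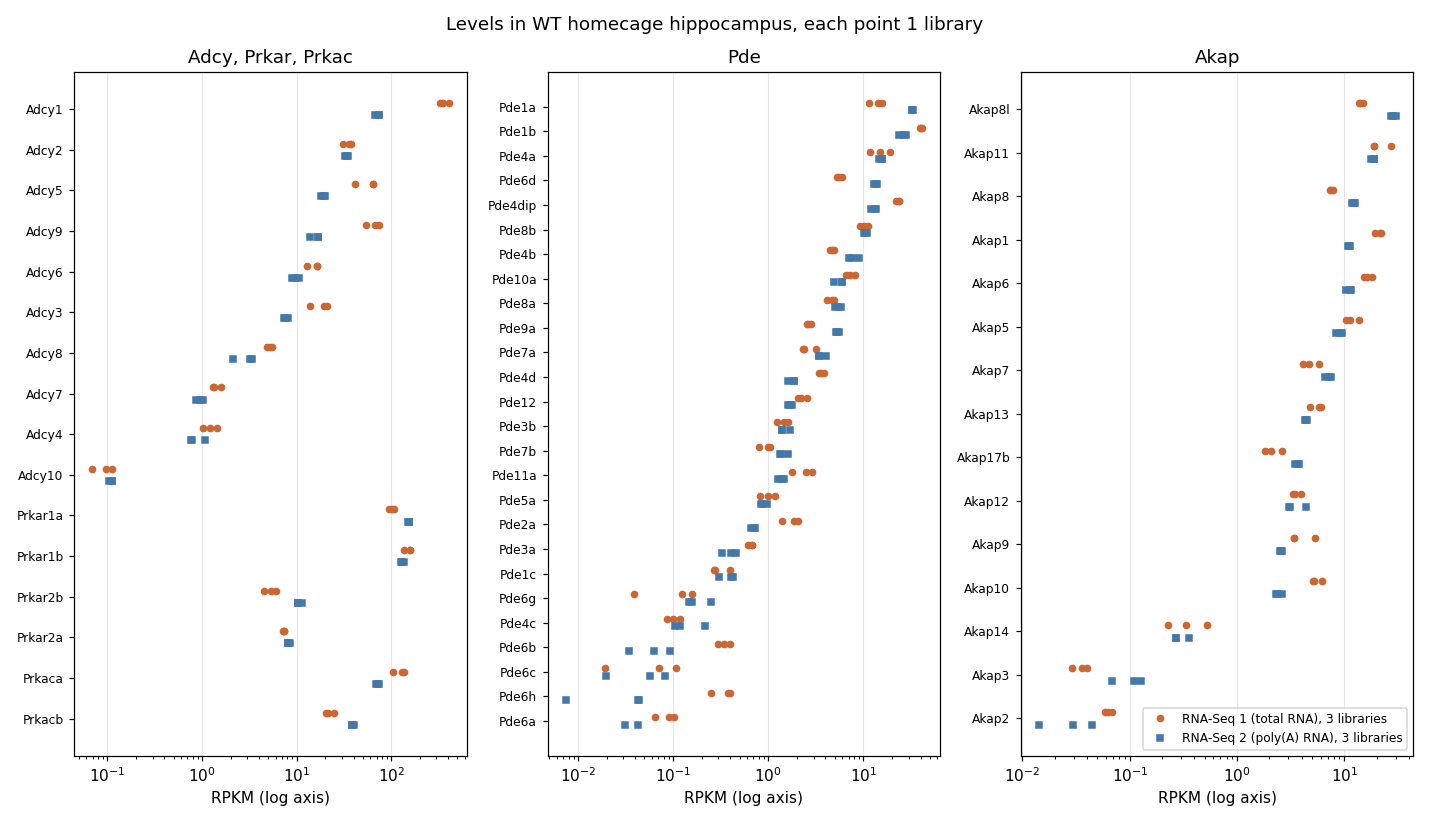
Level of each gene (RPKM, log axis) in the 3 WT homecage libraries of RNA-Seq 1 (circles) and of RNA-Seq 2 (squares), ordered by the RNA-Seq 2 mean within each family; each point is 1 library and Akap4, at 0 in all, is left out. Prkar1a, Prkar1b, Prkaca and Adcy1 lead in both, while Adcy1 stands at 360 ± 42.5 RPKM in RNA-Seq 1 and at 71.9 ± 4.22 RPKM in RNA-Seq 2 (SD, n = 3).

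The question of the study was which RNAs depend on the KIX domain after learning. Trained KIX mice of both tasks (n = 7) were compared with trained WT mice (n = 7), with the experiment and 4 factors of unwanted variation in the model. Of the 56 genes tested, 4 passed an adjusted p of 0.05: Pde10a, Prkar1b and Pde4a fell and Akap9 rose. Over all 21489 genes tested 2.42% passed (1.44% lower, 0.982% higher), the share against which 4 of 56 is read. The changes were small, at 0.13 to 0.20 on the log2 scale in size, and without the factors of unwanted variation none of the 4 passed, with adjusted p of 0.283 for Pde10a, 0.561 for Akap9, 0.411 for Prkar1b and 0.626 for Pde4a. At unadjusted p under 0.05 the count was 17 of 56 (30.4%), beside 17.8% of all genes. The median change of the 56 genes was -0.02, beside -0.01 for all genes tested. The study also adjusted its counts for GC content, a step left out of this fit. With GC-content normalization 2 of 56 passed, Pde10a and Pde1a, both lower (3.57%, beside 0.742% of all genes).

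Pde10a codes for a phosphodiesterase of both cAMP and cGMP, best known from striatal projection neurons. In MWM mice it was at 102, 95.6 and 89.2 CPM in WT and at 78.9, 72.5 and 83.7 CPM in KIX. In CFC mice it was at 66.7, 59.1, 70.8 and 63.6 CPM in WT and at 59.1, 54.2, 60.2 and 64.6 CPM in KIX. The MWM groups did not overlap and the CFC groups did, and 7 of 7 KIX mice lay below the mean of their own WT group. The log2 fold change was -0.20 (SE 0.03, adjusted p = 0.0067 by the edgeR quasi-likelihood test). Within MWM mice alone it was -0.28 (SE 0.10, adjusted p = 0.813). Leaving out each of the 14 libraries in turn kept the call 14 times. The striatal markers (4 genes, summed) were at 16.7 to 17.8 CPM in WT and 16.5 to 18.8 CPM in KIX MWM mice, and at 15.8 to 17.8 and 15.5 to 19.1 CPM in WT and KIX CFC mice.

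Prkar1b, the type I regulatory subunit found mainly in neurons, was at 575, 532 and 587 CPM in WT and 496, 470 and 523 CPM in KIX MWM mice. It was at 502, 501, 482 and 460 CPM in WT and 478, 434, 444 and 457 CPM in KIX CFC mice. The MWM groups were apart, the CFC groups overlapped, and 7 of 7 KIX mice lay below their WT mean. The log2 fold change was -0.13 (SE 0.03, adjusted p = 0.0171 by edgeR), a call kept in 14 of 14 omissions of a library and lost after correction for GC content (-0.09, adjusted p = 0.193). The other regulatory subunits did not pass: Prkar2b was at 0.12 (SE 0.04, adjusted p = 0.150), Prkar2a at -0.04 and Prkar1a at 0.00. Prkaca was at -0.02 and Prkacb at 0.03.

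Akap9, a large scaffold of the Golgi and centrosome, was at 64.3, 92.9 and 92.0 CPM in WT and 90.4, 118 and 96.4 CPM in KIX MWM mice. In CFC mice it was at 53.8, 51.8, 55.7 and 54.9 CPM in WT and 54.2, 52.6, 57.8 and 63.5 CPM in KIX. Both sets of groups overlapped. Its log2 fold change of 0.18 (SE 0.03, adjusted p = 0.0085) lost the call without WT MWM replicate 1 (adjusted p = 0.154), without KIX MWM replicate 2 (adjusted p = 0.0882) and after GC correction (adjusted p = 0.204).

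Pde4a was at 107, 110 and 93.3 CPM in WT and 86.3, 71.1 and 99.1 CPM in KIX MWM mice. In CFC mice it was at 128, 114, 113 and 110 CPM in WT and 127, 112, 112 and 105 CPM in KIX. The groups overlapped in both tasks. Its log2 fold change was -0.14 (SE 0.03, adjusted p = 0.0230), and the call was lost in 6 of 14 omissions of a library: without WT MWM replicate 1 or 2, KIX MWM replicate 1 or 2, WT CFC replicate 1 or KIX CFC replicate 4. Without KIX MWM replicate 2 the log2 fold change was -0.08 (adjusted p = 0.279). The call was also lost after GC correction (-0.09, adjusted p = 0.190).

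**Figure D2:**
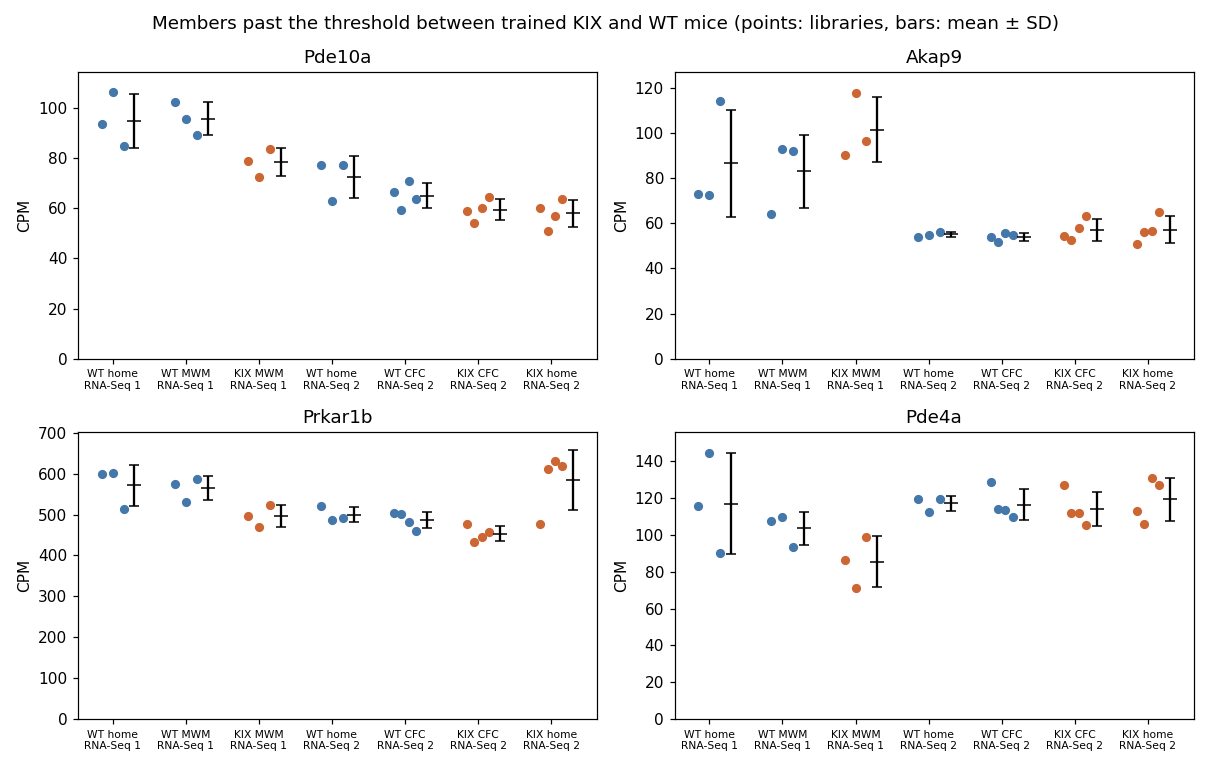
CPM of Pde10a, Akap9, Prkar1b and Pde4a in every library of the 7 groups (blue WT, orange KIX); bars give mean ± SD. Pde10a and Prkar1b of KIX MWM mice lie wholly below WT MWM mice, and Prkar1b of KIX homecage mice holds 3 libraries at 612 to 630 CPM and 1 at 476 CPM.

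By family, 7 of the 10 cyclases had a negative value and none passed. Their median log2 fold change was -0.07, with Adcy9 at -0.14 (SE 0.04, adjusted p = 0.0776) having the lowest p. Of 25 phosphodiesterases, 2 passed, both lower, and 16 were negative. Of 15 anchoring proteins, 1 passed, higher, and 8 were positive. None of the 2 catalytic subunits passed.

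**Figure D3:**
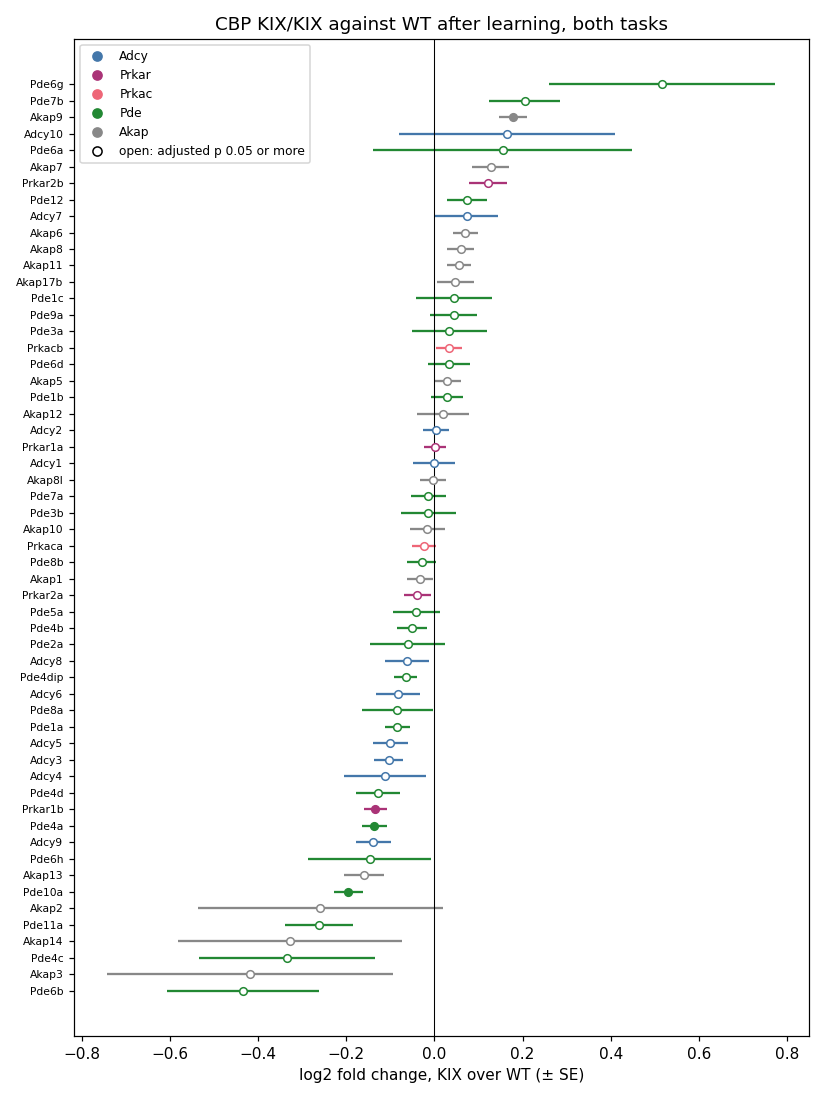
Log2 fold change of KIX over WT after learning for the 56 genes tested, with standard errors, coloured by family; filled points passed an adjusted p of 0.05. Pde10a, Pde4a and Prkar1b are filled on the negative side and Akap9 on the positive side, while the wide bars belong to genes of very low counts.

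Within each experiment, fewer libraries carried the genotype comparison. After MWM, 0 of 55 genes passed with edgeR (0% of all 22276 genes), 0 with DESeq2, and 5 were under an unadjusted p of 0.05 (9.09%, beside 5.77% of all genes). The KIX and WT MWM groups did not overlap for 15 of 55 genes (27.3%), beside 17.3% of all genes tested. Of these, 11 were lower in KIX: the cyclases Adcy3, Adcy5, Adcy6 and Adcy9, then Pde10a, Pde11a, Pde4dip, Pde6b, Pde6h, Akap1 and Prkar1b. The 4 higher were Akap6, Akap7, Pde12 and Pde7b. The lowest p belonged to Pde7b, a cAMP-specific phosphodiesterase, at 10.6, 11.04 and 12.9 CPM in WT and 15.5, 14.1 and 16.2 CPM in KIX (log2 fold change 0.41, SE 0.13, adjusted p = 0.813). Pde11a, which breaks down cAMP and cGMP, was at 16.6, 15.3 and 17.4 CPM in WT and 11.3, 11.5 and 13.9 CPM in KIX (-0.42, SE 0.15, adjusted p = 0.813).

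After CFC, 0 of 54 genes passed with edgeR (0.0106% of all genes), 0 with DESeq2, and 0 were under an unadjusted p of 0.05, beside 2.34% of all genes. No gene of the 54 had groups that did not overlap, beside 2.44% of all genes. The genes with the lowest p were Akap7 (log2 fold change 0.10, SE 0.06), Akap13 (-0.12, SE 0.07) and Pde6g (0.56, SE 0.35), all at an adjusted p of 1.00. The genotype change after MWM was tested against that after CFC, and 0 of 57 genes passed with edgeR (0% of all 22408 genes) and with DESeq2, while 2 were under an unadjusted p of 0.05 (3.51%, beside 3.83% of all genes), Adcy6 (-0.29, SE 0.13) and Akap1 (-0.20, SE 0.09). Pde7b, at 0.37 (SE 0.21), had the third lowest p.

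Homecage mice give the genotype difference without training, in RNA-Seq 2 only. None of 55 genes passed with edgeR (0.0107% of all genes) or with DESeq2, and 5 were under an unadjusted p of 0.05 (9.09%, beside 6.12% of all genes). Without KIX homecage replicate 3, the library with high Fos, the count was 0 as well. Pde10a had the lowest p. It was at 77.3, 62.9 and 77.2 CPM in WT and 60.3, 50.9, 56.9 and 63.9 CPM in KIX homecage mice, groups that overlapped by 1 library (log2 fold change -0.32, SE 0.10, adjusted p = 0.786). Without KIX homecage replicate 3 it was -0.31 (SE 0.11, adjusted p = 0.999). The summed striatal markers were at 17.2 to 19.4 CPM in the WT and 16.0 to 22.0 CPM in the KIX homecage libraries. Drd1, a Gs-coupled receptor gene outside that sum, was less even. It was at 4.06, 12.8, 12.5 and 18.7 CPM in KIX homecage replicates 1 to 4 and 3.63 to 7.60 CPM in all other groups. The part of these genes in the Pde10a value was not tested. Pde7b was at 16.4, 17.1 and 20.1 CPM in WT and 16.5, 11.8, 12.8 and 7.95 CPM in KIX homecage mice (-0.52, SE 0.20, adjusted p = 0.798), and Akap14, a protein of cilia, at -0.86 (SE 0.32, adjusted p = 0.798) with under 1 CPM in every library. Akap14 and Prkacb were the genes whose groups did not overlap, 2 of 55 (3.64%), beside 6.94% of all genes.

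The KIX homecage libraries were not alike. Prkar1b was at 476 CPM in replicate 1 and at 612, 630 and 618 CPM in replicates 2, 3 and 4, while all other libraries of RNA-Seq 2 lay between 434 and 520 CPM. Pde1b was at 158 CPM in replicate 1 and at 122, 101 and 99.95 CPM in the others, Adcy1 at 922 against 710, 670 and 755 CPM, and Pde7b at 16.5 against 11.8, 12.8 and 7.95 CPM. Replicates 2 to 4 were the libraries with Gfap at 553 to 1442 CPM, and replicate 1, with Gfap at 304 CPM, lay with the rest of RNA-Seq 2. Between genotypes in the homecage, Prkar1b was at 0.23 (SE 0.09, adjusted p = 0.798), and at 0.31 (SE 0.06, adjusted p = 0.0847) without replicate 1. The 5 astrocyte markers summed to 1183 to 2433 CPM in KIX homecage and 831 to 1222 CPM in all other groups. The higher sum lay mainly in Gfap. In KIX homecage replicates 1 to 4, Slc1a3 was at 537, 519, 510 and 530 CPM and Gja1 at 200, 183, 185 and 181 CPM. Aldh1l1 was at 38.2, 34.0, 38.9 and 49.2 CPM. The parts of astrocyte RNA and of the uneven neuronal markers Fibcd1 and Prox1 in these values were not tested.

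CFC mice were compared with homecage mice of the KIX genotype (n = 4 and 4), a comparison that shares the KIX homecage libraries with the one above. None of 54 genes passed with edgeR (0% of all 18851 genes), 9 were under an unadjusted p of 0.05 (16.7%, beside 13% of all genes) and DESeq2 called 2 (3.7%, beside 1.6%). Prkar1b was lower after CFC, at 478, 434, 444 and 457 CPM, with a log2 fold change of -0.36 (SE 0.07, adjusted p = 0.0931 by edgeR and 0.00122 by DESeq2). Akap8 was at 107, 107, 109 and 119 CPM after CFC and 105, 100.1, 93.5 and 96.9 CPM in the homecage, (log2 fold change 0.16, SE 0.04, adjusted p = 0.159 by edgeR and 0.0382 by DESeq2). Adcy7, a cyclase known from immune cells, was at 0.35 (SE 0.11, adjusted p = 0.208). The groups did not overlap for 4 of 54 genes (7.41%), beside 4.9% of all genes: Adcy7, Akap8 and Pde1c were higher after CFC and Adcy2 lower. Without KIX homecage replicate 1, 7 of 53 genes passed (13.2%, beside 5.45% of all genes in that fit): Adcy1, Adcy10, Akap8, Pde1b and Pde7b higher after CFC, and Prkar1b and Pde1a lower. The reference in that fit was KIX homecage replicates 2 to 4 only, the libraries with high Gfap. A response to CFC and the state of those homecage libraries cannot be told apart there. Prkar1b was then at -0.45 (SE 0.05, adjusted p = 6.11e-04). Without replicate 3 it was at -0.33 (SE 0.08, adjusted p = 0.181) and none of the 54 genes passed, beside 0.0839% of all genes.

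The test of whether CFC acts differently in KIX and WT mice gave 0 of 54 genes with edgeR (0% of all genes), 0 with DESeq2 and 5 at unadjusted p under 0.05 (9.26%, beside 4.79%). Prkar1b (-0.32, SE 0.11, adjusted p = 0.950), Akap8 (0.17, SE 0.07) and Pde1c (0.39, SE 0.15) had the lowest p. Prkar1b passed without KIX homecage replicate 1 (-0.41, SE 0.07, adjusted p = 0.0338), and without replicate 3 it was at -0.29 (SE 0.11, adjusted p = 1.00).

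**Figure D4:**
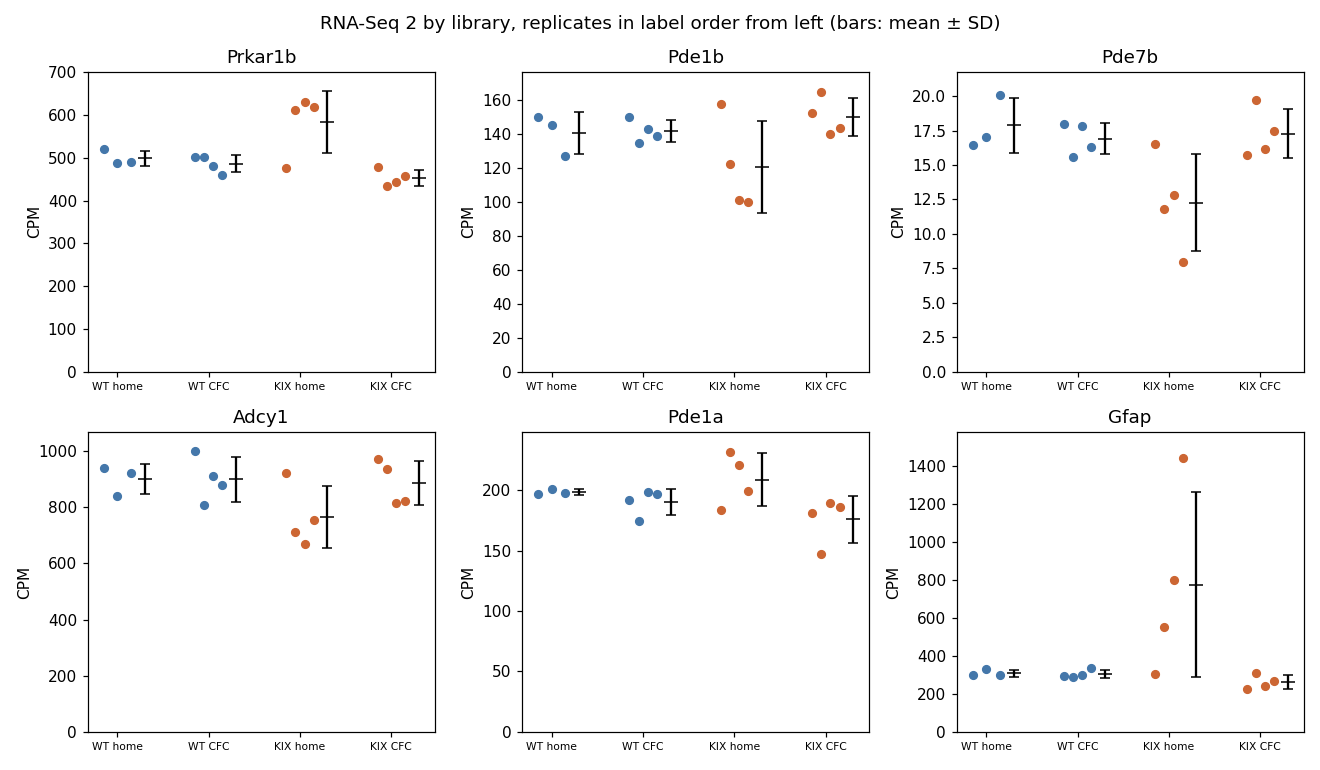
CPM of 5 pathway genes and of Gfap in the RNA-Seq 2 libraries (blue WT, orange KIX, replicates from left to right in label order); bars give mean ± SD. KIX homecage replicates 2 to 4 stand apart from replicate 1 in Prkar1b, Pde1b, Adcy1 and Gfap.

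Learning itself was followed in WT mice, trained (n = 7) against homecage (n = 6), with the experiment and 3 factors in the model. Fos, a check of the training label, was at 8.26 to 10.7 CPM in homecage and 17.6 to 22.6 CPM in MWM mice of RNA-Seq 1. In RNA-Seq 2 it was at 3.09 to 4.65 CPM in homecage and 22.2 to 30.1 CPM in CFC mice. Of 56 genes of the cAMP pathway, none passed with edgeR (0.794% of all 22038 genes), 14 were under an unadjusted p of 0.05 (25%, beside 16.9% of all genes) and DESeq2 called 4 (7.14%, beside 3.44% of all genes, with Akap11, Pde5a and Prkar1a higher, Adcy5 lower). Adcy5 was at 457, 459 and 297 CPM in homecage and 334, 343 and 335 CPM in MWM mice, and at 143, 139 and 129 CPM in homecage and 138, 133, 135 and 118 CPM in CFC mice. Its groups overlapped in both experiments, and the log2 fold change was -0.15 (SE 0.04, adjusted p = 0.0688). Pde2a, a phosphodiesterase stimulated by cGMP, was at -0.28 (SE 0.07, adjusted p = 0.0761), with 7 of 7 trained mice below their homecage mean. Its counts depend on how reads shared with Gm45837 (64.3% of its exon length) were assigned. Adcy4, a cyclase found in endothelium, was at -0.40 (SE 0.11, adjusted p = 0.0848).

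Trained and homecage WT libraries of the same replicate number deviated together, with correlations of 0.1 to 0.375 that do not establish a pairing of mice. The fit was therefore also made with the replicate number as a block. It called 7 of 56 genes of the pathway (12.5%), beside 4.5% of all genes in that fit: Akap11 (0.16) and Pde1a (0.16) higher after learning, and Akap8 (-0.18), Akap8l (-0.15), Adcy4 (-0.46), Adcy5 (-0.13) and Adcy6 (-0.12) lower, with adjusted p from 0.0166 to 0.0437. With the block and no factors the count was 0 (beside 0.0545% of all genes). Without WT homecage replicate 3 of RNA-Seq 1 the unblocked count was 11 (4 higher, 7 lower; 19.6%, beside 10.7% of all genes), without WT homecage replicate 3 of RNA-Seq 2 it was 1 (1.75%, beside 2.35%) and without WT CFC replicate 1 it was 2 (3.57%, beside 2.15%). In RNA-Seq 1, the endothelial markers (Cldn5, Flt1 and Pecam1, summed) were at 135 to 164 CPM in homecage and 93.1 to 123 CPM in MWM mice, and their part in the Adcy4 value was not tested.

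Taken by task, 0 of 55 genes passed after MWM with edgeR (0.0135% of all genes, 0.00898% higher and 0.00449% lower) and with DESeq2, with 7 under an unadjusted p of 0.05 (12.7%, beside 10.9% of all genes). The MWM and homecage groups did not overlap for 9 of 55 genes (16.4%), beside 13.5% of all genes: Pde11a, Pde1a, Prkar1a and Prkar2a were higher after MWM, and Adcy4, Adcy7, Akap8, Akap8l and Pde9a lower. Akap8 was at 65.5, 63.8 and 67.3 CPM in homecage and 54.2, 48.1 and 56.1 CPM in MWM mice (log2 fold change -0.31, SE 0.08, adjusted p = 0.295). Adcy4 was at 6.79, 5.61 and 4.81 CPM in homecage and 4.36, 3.11 and 3.59 CPM in MWM mice (-0.63, SE 0.18, adjusted p = 0.302), and Adcy7 was at -0.40 (SE 0.12, adjusted p = 0.307). WT homecage replicate 3, with Ttr at 1569 CPM against 86.7 and 98.0 CPM in replicates 1 and 2, decided this count: without it 9 of 55 genes passed (3 higher, 6 lower; 16.4%, beside 10.7% of all genes in that fit), among them Adcy5 at -0.45 and Akap11 at 0.47. Ttr was at 123, 504 and 1565 CPM in the MWM mice. The upper-quartile scaling factor was 0.757 and 0.758 in homecage replicates 1 and 2, 0.896 in replicate 3 and 0.821 to 0.857 in MWM mice. The fit without replicate 3 thus set only homecage replicates 1 and 2 against MWM mice. Akap11 was at 208, 207 and 301 CPM in the 3 homecage libraries and at 262, 294 and 312 CPM in MWM mice.

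After CFC in WT mice, 0 of 54 genes passed (0% of all genes) with edgeR and with DESeq2, and 0 were under an unadjusted p of 0.05, beside 2.39% of all genes. The genes with the lowest p were Pde1c (-0.21, SE 0.11), Pde10a (-0.16, SE 0.09) and Pde5a (0.16, SE 0.11), all at an adjusted p of 1.00, and no gene had groups that did not overlap, beside 5.33% of all genes. The response to MWM against that to CFC gave 0 of 57 genes with edgeR (0% of all genes) and with DESeq2, and 4 at unadjusted p under 0.05 (7.02%, beside 7.93%). Akap8 differed by -0.31 (SE 0.08, adjusted p = 0.476), Adcy7 by -0.56 (SE 0.17, adjusted p = 0.476) and Pde1a by 0.42 (SE 0.14, adjusted p = 0.511). Without WT homecage replicate 3 of RNA-Seq 1, 2 genes passed this test (3.51%, beside 2.65% of all genes), Akap11 at 0.46 and Adcy5 at -0.38.

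More genes passed between the experiments than in any comparison of genotype or training. Among WT homecage mice, 43 of 57 genes differed between RNA-Seq 1 and RNA-Seq 2 (28 higher and 15 lower in RNA-Seq 1), beside 71.4% of all 22408 genes (39.6% higher, 31.8% lower). The median of all genes was shifted by 0.08 on the log2 scale, by -0.03 with TMM scaling and by 0.13 with DESeq2 scaling. The cyclases leaned one way: 8 of 10 were higher in RNA-Seq 1 and none lower, with a median log2 difference of 0.74. Adcy1 was at 4368, 5097 and 4062 CPM in RNA-Seq 1 and 940, 840 and 920 CPM in RNA-Seq 2 (log2 difference 2.32, SE 0.13, adjusted p = 4.75e-13). Adcy9 differed by 2.05 (SE 0.10), Adcy5 by 1.56 (SE 0.11) and Adcy3 by 1.22 (SE 0.10). Adcy2 was not among them, at 0.05 (SE 0.07, adjusted p = 0.568).

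The subunits of PKA were split. Prkaca was higher in RNA-Seq 1 by 0.78 (SE 0.08) and Prkacb lower by 0.82 (-0.82, SE 0.08), so that Prkaca made up 84.7% ± 3.21 of the catalytic sum in RNA-Seq 1 and 64.9% ± 0.94 in RNA-Seq 2 (n = 3 each). Prkar1a (-0.59, SE 0.06), Prkar2a (-0.19, SE 0.06) and Prkar2b (-1.01, SE 0.12) were lower in RNA-Seq 1 and Prkar1b did not pass (0.19, SE 0.09, adjusted p = 0.0549). The regulatory to catalytic ratio was 1.82 ± 0.14 in RNA-Seq 1 and 2.72 ± 0.07 in RNA-Seq 2.

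Of 26 phosphodiesterases, 11 were higher and 6 lower in RNA-Seq 1. Pde6h, the inhibitory subunit of the cone photoreceptor enzyme, had the largest value at 3.22 (SE 0.33), from 1.98 to 3.13 CPM against 0.0582 to 0.344 CPM, and Pde6b differed by 2.32 (SE 0.31). Pde6d (-1.27, SE 0.08) and Pde1a (-1.26, SE 0.11) were lower, Pde1a at 69.6, 86.0 and 93.8 CPM against 197, 202 and 198 CPM. Of 15 anchoring proteins, 8 were higher and 5 lower. Akap10, which anchors PKA at mitochondria and endosomes, was at 1.19 (SE 0.08), Akap1, an anchor of the outer mitochondrial membrane, at 0.92 (SE 0.07), Akap8l at -1.0005 (SE 0.09) and Akap3, a sperm protein of very low counts, at -1.50 (SE 0.52), a call that was lost without WT homecage replicate 2 of RNA-Seq 2 (-1.23, adjusted p = 0.0870) and with the replicate block (-1.15, adjusted p = 0.261).

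**Figure D5:**
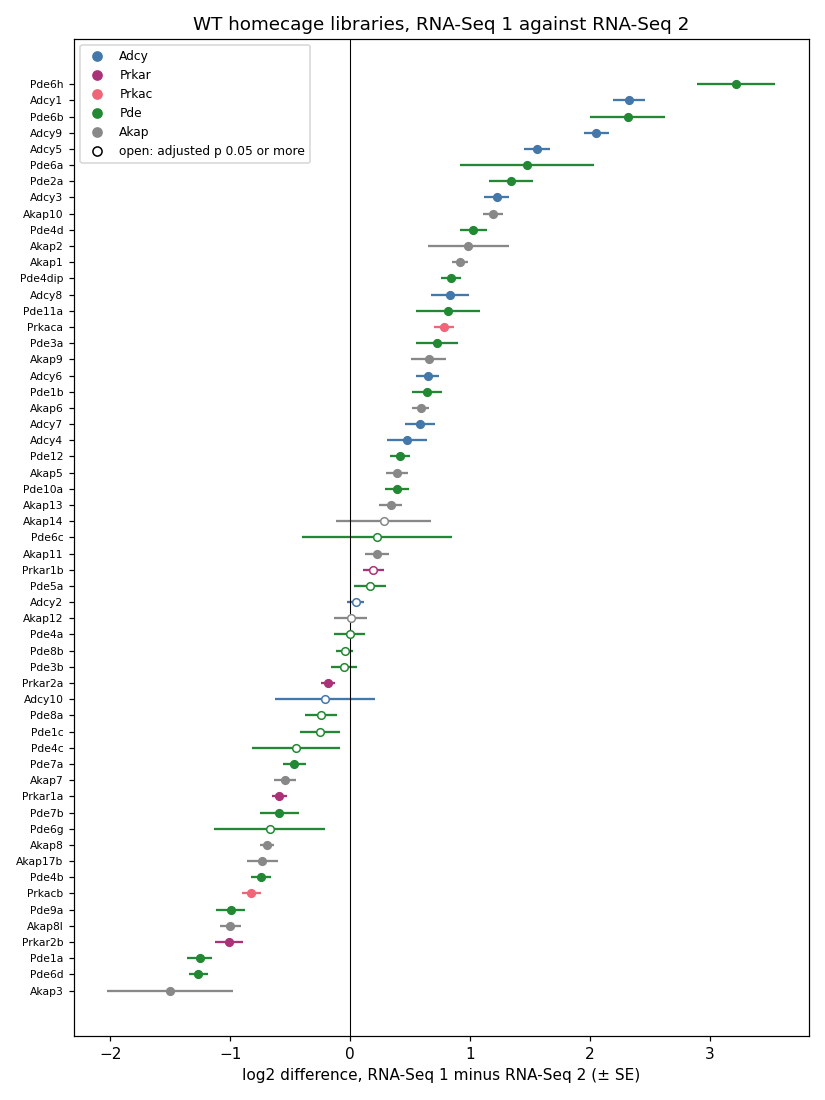
Log2 difference between WT homecage libraries of RNA-Seq 1 (total RNA) and RNA-Seq 2 (poly(A) RNA) for the 57 genes tested, with standard errors, coloured by family; filled points passed an adjusted p of 0.05. Pde6h, Adcy1, Pde6b and Adcy9 stand above 2, and Akap3, Pde6d, Pde1a, Prkar2b and Akap8l stand at or below -1.

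Other genes of the pathway, 43 in 8 lists (G protein alpha subunits, Gs-coupled receptors, PKA inhibitors, cAMP-activated exchange factors, HCN channels, the CREB family, further anchoring proteins and phosphatase inhibitors), were tested in the same fits. After learning, 2 of 43 passed between genotypes, beside 2.42% of all genes, with a median of 0.00. Gnal, the alpha subunit of Golf, was higher in KIX mice by 0.14 (SE 0.03, adjusted p = 0.0165), at 89.2, 89.5 and 96.1 CPM in WT and 100.2, 111 and 97.5 CPM in KIX MWM mice. In CFC mice it was at 119, 111, 115 and 111 CPM in WT and 127, 122, 124 and 116 CPM in KIX. Rapgef3, the exchange factor Epac1 that cAMP activates apart from PKA, was lower (-0.15, SE 0.03, adjusted p = 0.0171), at 57.7, 53.1 and 52.8 CPM in WT and 49.7, 46.3 and 48.3 CPM in KIX MWM mice, and at 37.8, 35.0, 34.8 and 34.7 CPM in WT and 33.7, 31.8, 31.4 and 32.3 CPM in KIX CFC mice. The groups of Gnal overlapped in CFC mice and not in MWM mice, and those of Rapgef3 overlapped in neither. Rapgef3 was also lower in untrained KIX mice, at -0.30 (SE 0.10, adjusted p = 0.786 by edgeR). It was at 40.5, 36.5 and 37.3 CPM in WT and 36.1, 31.1, 27.0 and 29.2 CPM in KIX homecage mice. These groups did not overlap, as for 6.94% of all genes. Gnal was at -0.07 (SE 0.05) in the homecage. Alternative settings are not given for the 43 genes. With learning in WT mice, 2 of 43 passed, beside 0.794% of all genes, both lower. Adcyap1r1, the PACAP receptor, was at -0.19 (SE 0.03, adjusted p = 0.0277 by edgeR). Hcn2, a channel opened by hyperpolarization and modulated by cAMP, was at -0.16 (SE 0.03, adjusted p = 0.0383 by edgeR). In RNA-Seq 1, Adcyap1r1 was at 649, 655 and 407 CPM in homecage and 476, 465 and 405 CPM in MWM mice. Hcn2 was at 231.5, 223 and 164 CPM in homecage and 160, 173 and 163 CPM in MWM mice. Homecage replicate 3 thus lay within the MWM range for both genes. For CFC in WT mice, Adcyap1r1 was at -0.08 (SE 0.09) and Hcn2 at -0.02 (SE 0.09), and neither passed. None of the PKA inhibitors or of the CREB family passed in either comparison. In the homecage and within-experiment comparisons, 0 of 43 passed with edgeR, beside at most 0.0135% of all genes. At unadjusted p under 0.05 there were 4 of 43 between genotypes in the homecage (beside 6.12% of all genes). There were 8 for MWM (beside 10.9%), 2 for genotype after MWM (beside 5.77%) and 0 for CFC (beside 2.39%). Genotype after CFC gave 1 (beside 2.34%) and CFC in KIX mice 5 (beside 13%).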

How the data were processed

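RNA was sequenced from 24 dorsal hippocampi in 7 groups. The authors aligned reads with STAR and counted them per gene with featureCounts (version 1.4.4, with SAMtools 1.6 and builds mm10 and GRCm38 per the submitters' processing notes). The raw counts were deposited with no scaling. The annotation release and strand setting are not given in the sources used here, so antisense overlaps were not separated. Every column was mapped to a sample by its label. Replicates are separate mice by the study's methods.

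Genes were matched to GENCODE M21 by identifier (51633 of 51826). The members, gene lists and tests were chosen with earlier results of these data known. Counts passing filterByExpr were scaled by upper quartile and tested with edgeR 4.0.16 (R 4.3.3), quasi-likelihood, two-sided, with Benjamini-Hochberg adjustment over all genes and 0.05 as threshold. The standard error is the log2 fold change divided by the root of F. Pooled comparisons held the experiment and RUVr factors (4 for genotype, 3 for learning), and within-experiment fits had none. The study's adjustment for GC content was left out of the main fits and enters only as an alternative. The RUVr step was written anew after the published procedure and the fits were tested on simulated data. Levels are CPM, or RPKM by union exon length. The striatal marker sum holds 4 genes, and a further marker of that list is not reported here. Alternatives were TMM, DESeq2 1.42.0, no filter, GC-content normalization in 10 bins, other numbers of factors, a replicate block and leaving out each library.

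Genes were named by rule: all PKA subunits, the 3 highest of each other family, those past the threshold (at most 8), otherwise the 3 of lowest p, and the 5 largest differences between experiments in each direction. Genes named because groups did not overlap, or under an alternative, were chosen after their values were seen. Total counts of 15385836 to 65709282 set a floor of 3 counts at 0.0537 to 0.174 CPM, for counting error only. No pair of libraries within a group agreed within sampling noise (chi-square per gene 2.74 to 91.4 over 30 pairs).

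Libraries of the same number were checked for shared deviation from their group means. For trained against homecage WT mice every such pair had a correlation of at least 0.1 (up to 0.183 for MWM and 0.375 for CFC). For KIX CFC against homecage mice it was 0.146 to 0.248. Pairs of unlike number averaged -0.0704, -0.0979 and -0.0679 in these comparisons. Some reached as much, such as 0.213 for KIX CFC replicate 1 with KIX homecage replicate 2. The correlations therefore do not establish a pairing of mice. These comparisons were treated as possibly paired, and the genotype comparisons were not. In RNA-Seq 2, replicates 1 and 2 of every group held 30143949 to 46056290 counts. Replicates 3 and 4 held 15385836 to 20568337. WT CFC replicate 1 had correlations of 0.377 and 0.356 with KIX CFC replicates 1 and 2, and -0.377 and -0.308 with 3 and 4. For WT CFC replicate 2 these were -0.0533, -0.0896, 0.124 and 0.0107. The main fits held no term for this split in depth, which only the replicate block takes up.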

Additional observations from a re-analysis of the deposited data

Results flagged for a closer look

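In groups of 4 libraries, the gap of the highest or lowest library to the next was set against the range of the group (Dixon's ratio, critical value 0.829). This was done for 37 named genes in 3 groups each, 111 sets of libraries, of which 6 passed, where chance alone flags about 1 in 20. Prkar1b in KIX homecage mice had a ratio of 0.884, with replicate 1 at 476 CPM below 612 to 630 CPM. Adcy6 in KIX CFC mice had 0.866, with replicate 2 at 55.2 CPM below 67.8 to 69.7 CPM. Akap10 (0.873, replicate 3 at 18.0 CPM above 15.8 to 16.1 CPM), Akap7 (0.897, replicate 4 at 36.3 CPM above 32.7 to 33.1 CPM) and Akap8 (0.867, replicate 4 at 119 CPM above 107 to 109 CPM) stood out in KIX CFC mice, and Akap1 in WT CFC mice (0.829, replicate 1 at 49.9 CPM above 46.5 to 47.0 CPM).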

How the results depend on the processing

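The count of genes past the threshold between trained KIX and WT mice was 4 (7.14%, beside 2.42% of all genes). It was 7 with DESeq2 (12.5%, beside 4.07%), 2 with GC-content normalization (Pde10a and Pde1a, both lower; 3.57%, beside 0.742%), 0 with no factors (beside 0.0186%), 0 with 2 factors (beside 0.61%), 0 with the replicate block and no factors (beside 0.0372%), 16 (4 higher, 12 lower) with the replicate block and the factors (28.6%, beside 13.4% of all genes), and 2 to 8 when a library was left out. It was 2 (3.57%) without WT MWM replicate 1 (beside 1.33% of all genes) or KIX MWM replicate 2 (beside 0.906%), 8 without WT CFC replicate 2 (14.3%, beside 3.01%) and 7 without KIX CFC replicate 1 (12.5%, beside 4.08%). For learning in WT mice it was 0 (beside 0.794% of all genes). It was 4 with DESeq2 (7.14%, beside 3.44%), 7 with the replicate block and the factors (12.5%, beside 4.5%), and 0 to 11 with a library left out (19.6% at most, beside 10.7% in that fit). For CFC in KIX mice it was 0 (beside 0% of all genes). It was 2 with DESeq2 (3.7%, beside 1.6%), 1 with no filter on low counts (1.75%, beside 0.156%) and 0 to 7 with a library left out (13.2% at most, beside 5.45% in that fit). With a library left out, it ran from 0 to 9 for MWM in WT mice (16.4% at most, beside 10.7% in that fit). For genotype by training it ran from 0 to 1 (1.89%, beside 0.344%) and for learning by experiment from 0 to 2 (3.51%, beside 2.65%). In the genotype comparisons the replicate numbers were not taken as paired, and the block moved no other count by over 1.5 times. The count between experiments was 43 (75.4%, beside 71.4% of all genes). It ran from 36 with the replicate block (63.2%, beside 60.2%) to 44, as with DESeq2 (77.2%, beside 70.3%). Of the 47 named values, 1062 alternatives kept the direction and 0 reversed it, while 25 lost and 17 gained the threshold. These values were chosen by low p or large difference in the main fits, and the alternatives reuse the same libraries. The kept directions are therefore no independent support. Of the other counts, 229 alternatives stayed within 1.5 times. The cause of these shifts was not tested. Small groups and low counts limit the genes under 0.2 RPKM.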
